A study of Homo sapiens with 24 samples.

Results

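Genes that interferons are known to induce were followed in D425 cells, an established human medulloblastoma line, after a hairpin RNA against OTX2 was switched on. The 10 genes were USP18, IFI44L, IFI44, ISG15, IFIT1, MX1, OAS1, IFITM1, IFITM2 and IFITM3, out of 19775 genes with a probe set of their own. All 13 probe sets annotated to them were taken, out of 54675 on the array. The genes were chosen because some of their signals over these same arrays moved in different directions. Their own levels are therefore given as a description and with no test.

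The cells carried a doxycycline-inducible hairpin against OTX2, a homeobox factor needed for forebrain and eye development, and were sampled at 0, 8, 16, 24, 48 and 96 h of doxycycline in 3 independent courses, 1 array per time and course. Control D425 cells were sampled at the same 6 times in 1 course, and what they carry in place of the hairpin is not stated in the sources used here. Both arms were grown in MEM with fetal calf serum and plated before doxycycline was added, and the 0 h arrays precede induction. With 1 control array per time the control course has no replicate of its own.

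Type I interferons bind a receptor made of IFNAR1 and IFNAR2, whose kinases JAK1 and TYK2 activate STAT proteins. Together with IRF9 these form a complex that binds the interferon-stimulated response element in the promoters of its target genes, and many of those genes encode proteins that limit viruses. USP18 removes the ubiquitin-like protein ISG15 from its targets and dampens signalling at the receptor. The genes that interferon induces thus include a brake as well as effectors.

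Promoter sequences are shown for 5 of the genes because they carry a sequence that most of the genes with a window share. Of these, IFI44L and IFI44 ended higher and IFITM3 ended lower, while ISG15 and IFIT1 were too dim for a statement. RefSeq windows of GRCh38.p14, from 250 bases before to 50 bases after the annotated start, were available for 8 of the 10 genes, as 11 windows of 300 bases. USP18 and IFITM2 are named only. Each window is written 5′ to 3′ on the strand of its gene, and capitals mark matches, on either strand, to the response element: GAAA, any 2 bases, GAAA. IFI44L (plus strand) lies at chr1:78620198-78620497 and IFI44 (plus strand) at chr1:78649581-78649880. IFITM3 (minus strand) lies at chr11:320811-321110, ISG15 (plus strand) at chr1:1013247-1013546 and IFIT1 (plus strand) at chr10:89392373-89392672.
IFI44L: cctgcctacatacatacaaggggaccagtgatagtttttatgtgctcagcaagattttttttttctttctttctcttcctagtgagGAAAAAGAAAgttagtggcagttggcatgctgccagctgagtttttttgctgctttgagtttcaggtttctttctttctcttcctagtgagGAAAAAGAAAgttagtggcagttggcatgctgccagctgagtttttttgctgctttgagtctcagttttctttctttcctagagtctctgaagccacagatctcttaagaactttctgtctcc
IFI44: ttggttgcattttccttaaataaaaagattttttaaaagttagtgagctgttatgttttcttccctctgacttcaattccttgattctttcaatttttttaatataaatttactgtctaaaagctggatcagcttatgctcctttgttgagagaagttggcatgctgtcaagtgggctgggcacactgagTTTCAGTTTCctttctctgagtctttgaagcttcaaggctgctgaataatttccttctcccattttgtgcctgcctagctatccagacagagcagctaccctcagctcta
IFITM3: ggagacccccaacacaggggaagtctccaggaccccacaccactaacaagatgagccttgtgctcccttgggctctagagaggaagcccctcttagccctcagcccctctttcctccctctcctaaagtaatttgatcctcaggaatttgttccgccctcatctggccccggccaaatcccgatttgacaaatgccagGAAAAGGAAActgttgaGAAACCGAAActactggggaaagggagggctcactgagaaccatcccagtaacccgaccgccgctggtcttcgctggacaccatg
ISG15: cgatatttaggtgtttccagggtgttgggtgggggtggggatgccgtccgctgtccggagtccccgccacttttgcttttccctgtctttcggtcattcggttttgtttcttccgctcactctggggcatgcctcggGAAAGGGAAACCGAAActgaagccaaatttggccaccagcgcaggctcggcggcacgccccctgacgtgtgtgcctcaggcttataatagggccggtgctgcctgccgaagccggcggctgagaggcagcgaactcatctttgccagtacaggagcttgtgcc
IFIT1: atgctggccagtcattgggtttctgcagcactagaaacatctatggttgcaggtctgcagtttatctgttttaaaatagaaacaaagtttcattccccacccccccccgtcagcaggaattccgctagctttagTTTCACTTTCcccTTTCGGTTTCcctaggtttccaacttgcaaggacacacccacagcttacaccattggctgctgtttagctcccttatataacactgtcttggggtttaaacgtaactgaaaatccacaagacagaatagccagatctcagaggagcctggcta

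The response element was found in at least 1 window of 7 of the 8 genes, namely IFI44L, IFI44, IFIT1, IFITM1, IFITM3, ISG15 and MX1. Of 35116 promoter windows of the same length, 3.57% held it. This share is per window, whereas a gene with several windows counted when any of them matched. A window of MX1 held no match. The window of OAS1 held no match to the searched letters, but it held GAAA, a single C and GAAA, a spacing that the search did not cover. IFI44L had matches starting 164 and 73 bases before the start, and both lie in a stretch of 85 bases that occurs a second time, unaltered, 91 bases further on. IFITM3 had matches 52 and 35 bases before the start, and ISG15 had overlapping matches 113 and 107 bases before it. IFIT1 had matches 116 and 103 bases before the start, and the window of IFI44 that is shown had 1 match, 60 bases before it. The gamma-activated site TTCNNNGAA, searched on both strands, was found in a window of IFITM1, MX1 and OAS1 and in 7.66% of all windows. The letters TAATCC, a core that OTX proteins bind, were in none of the 11 windows on either strand and in 6.36% of all windows. These matches describe letters in a window and show no binding.

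Signals are the deposited MAS5 intensities, scaled per array, and log2 changes are of signal + 16, which understates the change of dim genes. Array medians lay between 16.3 and 20.6. OTX2 itself, by its brighter probe set, had signals of 3841.5, 4398.3 and 4324.3 at 96 h in shOTX2 courses 1, 2 and 3, against 4417.4, 4839.4 and 4719.5 at 0 h, and 5357.0 at 96 h against 4963.6 at 0 h in the control course. Its other probe set read 2980.1, 3417.0 and 3488.9 at 96 h in the shOTX2 courses, against 3198.3, 2897.6 and 2984.1 at 0 h. The brighter probe set was thus slightly lower at 96 h in every shOTX2 course and the other was higher in courses 2 and 3. Whether either reads only the transcript that the hairpin targets was not settled here, so these values do not check the knockdown, and the arm is called shOTX2 from its label alone. The summed signal of 10 medulloblastoma markers, fixed with the gene lists, was 9428.5 to 13194.8 on shOTX2 arrays and 13524.0 to 15869.7 on control arrays. In the shOTX2 courses it was 9428.5 to 9897.4 at 96 h, against 11840.7 to 13194.8 at 0 h. MYC, OTX2 and IMPG2 dominated this sum, with mean signals of 4913, 4457 and 2272, and CRX, the next brightest, had 264. OTX2 is also the target of the hairpin, and 8 of the 10 markers passed the filter on low signal. The sum thus says little about the dimmer markers. The summed signal of the 15 immune cell markers with a probe set was 92.1 to 161.1 on shOTX2 arrays and 113.0 to 155.5 on control arrays, and 5 of them passed the filter on low signal. The ratio of 3′ to 5′ actin probe sets, a sign of RNA or label quality, was 1.31 to 1.51 in course 1, 1.82 to 2.36 in course 2, 1.87 to 2.02 in course 3 and 1.30 to 1.55 in the control course. Its part in the results was not tested. In bulk RNA, fewer cells that make a transcript and less transcript per cell cannot be told apart.

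The 10 genes fell into 3 groups by signal. USP18, IFI44L and IFI44 were higher at 48 and 96 h than at 0 h in every shOTX2 course. IFITM2 and IFITM3 were lower at 48 and 96 h than at 0 h in every shOTX2 course. ISG15, IFIT1, MX1 and OAS1, and IFITM1 beside them, stayed near or below the median of the array throughout. The filter on low signal asked for a value above the median of its array on 3 or more arrays. Of the 13 probe sets 8 met it, for 6 genes: USP18, IFI44L, IFI44, IFITM1, IFITM2 and IFITM3.

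**Figure D1:**
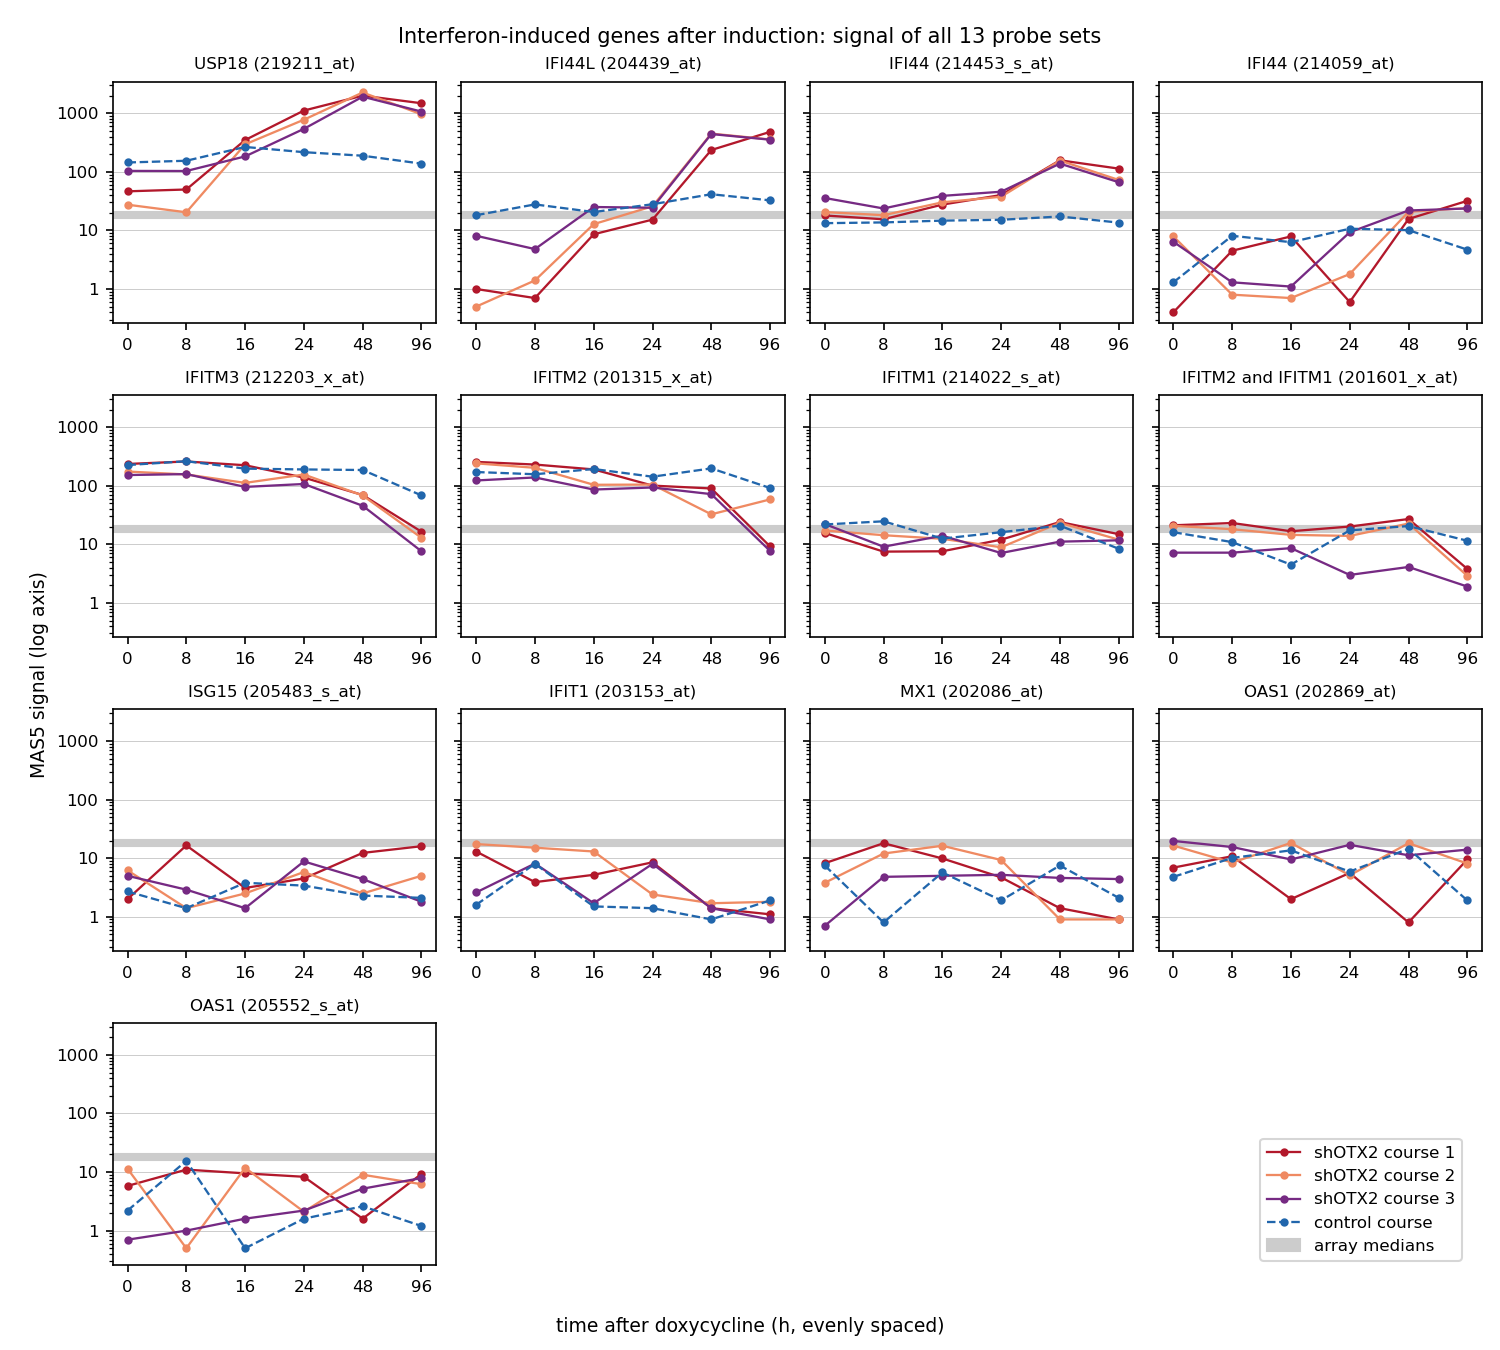
MAS5 signal (log axis) against hours of doxycycline for the 13 probe sets of the 10 genes, with a solid line per shOTX2 course, a dashed line for the control course and a grey band for the range of array medians. USP18, IFI44L and IFI44 end above their 0 h signal in the 3 shOTX2 courses and IFITM2 and IFITM3 end below it, while ISG15, IFIT1, MX1 and OAS1 stay under 20 throughout.

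USP18, the protease that takes ISG15 off its targets, was the brightest of the genes that ended higher. Its signal at 0, 8, 16, 24, 48 and 96 h was 46.5, 50.0, 349.3, 1113.3, 1999.9 and 1484.2 in course 1. In course 2 it was 27.5, 20.4, 294.8, 777.0, 2265.4 and 960.2. In course 3 it was 103.8, 103.4, 183.5, 542.6, 1920.6 and 1069.1. All 3 courses were highest at 48 h, every array from 16 h on exceeded every array at 0 h, and the 8 h arrays lay within the range of those at 0 h apart from course 2. The control course read 144.6, 154.7, 266.2, 216.8, 188.6 and 138.2 at the same times, so at 0 h all 3 shOTX2 courses were below control. The mean of the shOTX2 courses was 2062 ± 181 at 48 h and 1171 ± 277 at 96 h, against 59.3 ± 39.7 at 0 h (SD, n = 3). Against 0 h the mean log2 change was -0.06 at 8 h, then 2.04 (16 h), 3.53 (24 h), 4.91 (48 h) and 4.08 (96 h). The signal at 96 h was 74.2%, 42.4% and 55.7% of that at 48 h in courses 1, 2 and 3. USP41P, a near-identical relative of USP18, has no probe set here, and a contribution of it to the USP18 signal cannot be told apart.

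IFI44L encodes a protein related to IFI44 and lies beside it on chromosome 1. Its signal at the 6 times was 1.0, 0.7, 8.6, 15.3, 236.0 and 481.4 in course 1. In course 2 it was 0.5, 1.4, 12.8, 25.8, 450.2 and 357.4. In course 3 it was 8.1, 4.8, 25.1, 24.4, 442.3 and 354.2. Its signal stayed under 26 up to 24 h, and course 1 was the only course that was highest at 96 h. The control course read 18.2, 27.8, 20.6, 28.0, 41.5 and 32.6, above all shOTX2 arrays at 0, 8 and 24 h and below them at 48 and 96 h. At 16 h the control array was above courses 1 and 2 and below course 3. The mean was 376 ± 121 at 48 h and 398 ± 72.5 at 96 h, against 3.20 ± 4.25 at 0 h (SD, n = 3), a log2 change of 4.32 and 4.44. A signal this low at 0 h makes the size of that change hang on the pseudocount: at 96 h the log2 change lay between 2.77 and 7.03 over the processing alternatives, with pseudocounts of 64 and 1 at the ends.

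IFI44, a cytoplasmic protein induced by interferon, has 2 probe sets. The brighter one read 18.0, 15.5, 27.6, 40.2, 157.6 and 113.6 in course 1. It read 20.6, 18.2, 30.2, 37.6, 155.9 and 72.8 in course 2. It read 35.8, 23.7, 38.9, 45.8, 138.3 and 66.6 in course 3. Like USP18, IFI44 was highest at 48 h in each course, and its arrays at 24, 48 and 96 h were all above those at 0 h. The control course stayed between 13.3 and 17.3. The mean was 151 ± 10.7 at 48 h and 84.3 ± 25.5 at 96 h, against 24.8 ± 9.61 at 0 h (SD, n = 3), a log2 change of 2.05 and 1.29. The other probe set was dim, with 15.7, 20.8 and 21.9 at 48 h and 32.0, 24.1 and 23.7 at 96 h, against 0.4, 7.9 and 6.4 at 0 h. It moved the same way but was highest at 96 h in all 3 courses.

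All 3 arrays of USP18 and IFI44L lay above those at 0 h from 16 h on, and those of IFI44, by its brighter probe set, from 24 h on. At 16 h the log2 change in the shOTX2 courses was 2.04 for USP18, 0.70 for IFI44L and 0.26 for IFI44. In the control course it was 0.81, 0.10 and 0.07 for the same genes. At 24 h it was 3.53, 0.99 and 0.51 in the shOTX2 courses and 0.54, 0.36 and 0.09 in control. The USP18 signal at 16 h was 183.5 to 349.3 in the shOTX2 courses, on both sides of the 266.2 in control. Course 3 of USP18 changed by 0.74 at 16 h, less than control. Since IFI44L at 0 h was below every array median in the shOTX2 courses, the size of its change is not fixed. At 16 h it lay between 0.24 and 2.33 over the processing alternatives, and that of USP18 between 1.48 and 2.69. The ends of these ranges need not come from the same alternative, so no order of the genes is read from them. IFI44 and USP18 were below their 48 h signal at 96 h in every course, whereas IFI44L at 96 h was 204.0%, 79.4% and 80.1% of its 48 h signal in courses 1, 2 and 3.

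**Figure D2:**
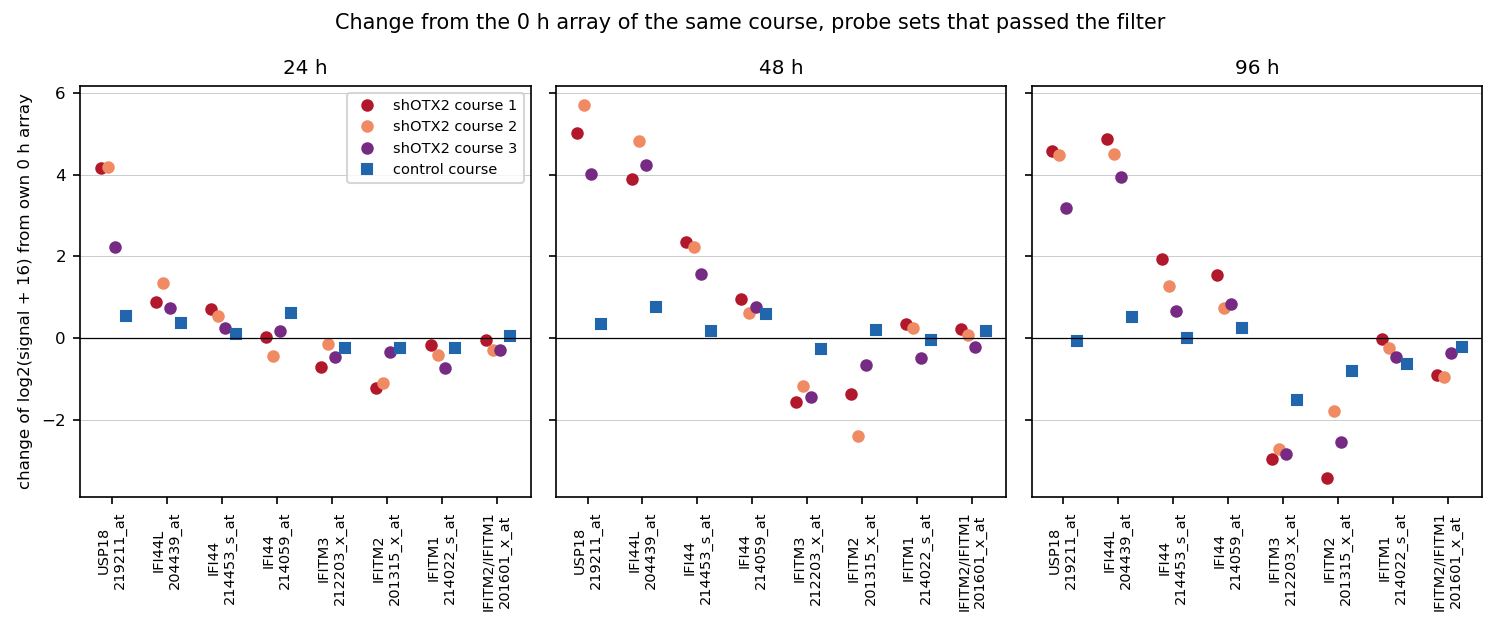
Change of log2(signal + 16) from the 0 h array of the same course at 24, 48 and 96 h, for the 8 probe sets that passed the filter, with a circle per shOTX2 course and a square for the control course. At 24 h the shOTX2 means are 3.53 for USP18, 0.99 for IFI44L and 0.51 for IFI44, where the size for IFI44L hangs on the pseudocount. The shOTX2 means of IFITM2 and IFITM3 are -2.59 and -2.84 at 96 h.

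The IFITM genes encode small membrane proteins that hinder the entry of viruses into cells, and IFITM1, IFITM2 and IFITM3 are related neighbours on chromosome 11. Their probe sets end in _x_at or _s_at, marking probes that can match more than 1 transcript, so the share of each gene in a signal is uncertain. IFITM3 read 235.3, 259.5, 223.9, 137.7, 69.4 and 16.4 in course 1 at the 6 times. It read 174.7, 155.8, 111.9, 155.4, 68.2 and 12.9 in course 2, and 152.2, 158.0, 95.5, 107.1, 45.5 and 7.6 in course 3. All arrays at 48 and 96 h were below all arrays at 0 h, and 96 h was the lowest time in each course. The mean was 61.0 ± 13.5 at 48 h and 12.3 ± 4.43 at 96 h, against 187 ± 43.0 at 0 h (SD, n = 3). The log2 change was -1.40 at 48 h and -2.84 at 96 h. In the control course the signal was 225.5, 262.2, 195.9, 189.7, 185.6 and 68.4, and the log2 change at 96 h was -1.52. The control course was thus also lowest at 96 h, and there the shOTX2 arrays were at 7.6 to 16.4 against 68.4 in control.

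IFITM2, by its own probe set, read 255.2, 230.0, 189.9, 100.5, 89.8 and 9.2 in course 1. It read 241.1, 202.2, 103.8, 104.6, 32.5 and 58.4 in course 2, and 123.0, 138.5, 86.1, 93.4, 71.9 and 7.7 in course 3. Every array at 24, 48 and 96 h was below every array at 0 h, and course 2 alone was higher at 96 h than at 48 h. The mean was 25.1 ± 28.9 at 96 h, against 206 ± 72.6 at 0 h (SD, n = 3), and the log2 change was -1.48 at 48 h and -2.59 at 96 h. The control course read 171.4, 157.1, 192.9, 142.6, 197.7 and 91.5, a log2 change of -0.80 at 96 h. IFITM1, by its own probe set, stayed between 7.1 and 24.7 on all 24 arrays, with a log2 change of -0.25 at 96 h. A probe set annotated to both IFITM2 and IFITM1 read 3.8, 2.9 and 1.9 at 96 h, against 21.1, 20.7 and 7.2 at 0 h, and 11.5 at 96 h against 16.1 at 0 h in control.

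The 4 remaining genes include the best known interferon targets. ISG15, the ubiquitin-like protein that USP18 removes, lay between 1.4 and 16.5 and exceeded the array median on 0 of 24 arrays. IFIT1, which binds viral RNA, lay between 0.9 and 17.4 and exceeded it on 1 array. MX1, a GTPase that blocks influenza virus, lay between 0.7 and 18.0 and exceeded it on 1 array. OAS1, which makes the second messenger that activates an RNA-cutting enzyme, lay between 0.8 and 19.7 on its brighter probe set and between 0.5 and 15.5 on the other. Signals this close to the array median allow no statement on a change of these genes.

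Of the 6 genes that passed the filter, 3 had all 3 arrays at 96 h above all 3 at 0 h and 3 had them below. Over all 13903 tested genes, 24.9% were above in this way and 25.4% below. At 48 h the same held for 3 genes above and 2 below, against 21.6% and 20.9% of all genes. At 24 h it held for 3 above and 2 below, against 11.0% and 9.98%. At 16 h it held for 2 above and 1 below, against 7.74% and 7.17%, and at 8 h for 0 above and 1 below, against 3.40% and 3.50%. The genes were chosen on these contrasts and a gene that passed the filter through its high times had to differ, so nothing is read from the counts.

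At 0 h the arms already differed in level for some of the genes. USP18 was 27.5 to 103.8 in the shOTX2 courses and 144.6 in control, and IFI44L was 0.5 to 8.1 against 18.2. IFI44, by its brighter probe set, was 18.0 to 35.8 in the shOTX2 courses and 13.3 in control. IFITM2 and IFITM3 overlapped the control value.

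The genes whose log2 signal correlated best with each of 3 members over the 24 arrays were listed from 6155 tested genes whose group means spanned at least 1 on the log2 scale. For USP18 they were APMAP (r = 0.973), STON2 (0.970), ABCA5 (0.961), RAB26 (0.959) and STC1 (0.959). STC1 averaged 2958 at 96 h and 3556 at 48 h, against 301.5 at 0 h, and like USP18 it was higher at 48 h than at 96 h. For IFI44L they were FNDC5 (0.988), GKAP1 (0.986), SPARC (0.983), LRRC10B (0.980) and SLC7A7 (0.975). SLC7A7, an amino acid transporter subunit, averaged 2876 at 96 h, against 37.4 at 0 h, and 121.1 at 96 h against 47.2 at 0 h in the control course. For IFITM3 they were CDC20 (0.966), WFDC1 (0.966), MKI67 (0.964), EBP (0.964) and FOXM1 (0.963). CDC20, MKI67 and FOXM1 are genes of dividing cells. CDC20 averaged 120 at 96 h, against 630 at 0 h, and 394.9 at 96 h against 847.6 at 0 h in control. These correlations share the 24 arrays and their time order and are given with no test.

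Other genes of the interferon pathway were tested to set the members beside them. The lists, which name 155 genes other than the members, cover ligands and receptors, the JAK, STAT, IRF and SOCS proteins, nucleic acid sensors, ISG15 conjugation, relatives of the members, other induced effectors and antigen presentation. Of these genes 80 were tested with limma over all 13903 genes, at a Benjamini-Hochberg adjusted p under 0.05. The p-values measure the spread between the 3 courses around the group means, with no term for the course. At 96 h 12 of the 80 rose and 19 fell, 38.8% together, against 43.6% of all tested genes (21.1% higher and 22.5% lower). At 48 h 9 rose and 12 fell, 26.2% together, against 33.3% of all genes (16.3% higher and 17.0% lower). The median log2 change of the 80 was -0.17 at 96 h and -0.11 at 48 h, against 0 and 0.03 for all tested genes. With the course as a replicate block the counts were 14 higher and 24 lower at 96 h and 11 higher and 20 lower at 48 h. The shares of all genes given above are from the main fit, without this block, and are not given for the alternatives. Centring each array on its median gave 8 higher and 23 lower at 96 h and 6 and 19 at 48 h. Quantile normalization gave 8 and 21 at 96 h and 7 and 15 at 48 h. All tested genes shifted downward too: their median log2 change was -0.12 at 96 h and -0.09 at 48 h with centring. With quantile normalization it was -0.06 and -0.02. Without course 2, 7 genes rose at 96 h, and 5 rose and 6 fell at 48 h. Without course 3, 5 rose at 48 h.

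The earlier times had few calls. At 24 h 1 gene rose and 1 fell, against 6.15% of all genes called (3.45% higher and 2.70% lower). At 16 h none of the 80 passed, against 1.02% of all genes (0.633% higher and 0.388% lower), and 8 of the 80 had an unadjusted p under 0.05, against 1555 of the 13903. At 8 h none passed, against 0 of all genes (462 of all genes had an unadjusted p under 0.05, and 2 of the 80). With the course as a replicate block 1 rose and 2 fell at 16 h, and 3 rose and 3 fell at 24 h. The shares of all genes at these times are from the fit without this block. Without course 2 none passed at 24 h, and without course 1 there were 2 that fell.

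By role, the ligand and receptor list had 8 tested genes at 96 h, of which 0 rose and 3 fell. Together 37.5% were called, against 43.6% of all genes (21.1% higher and 22.5% lower). IFNB1, the interferon beta gene, had no signal above 8.0 on any array. IFNAR1 did not pass (log2 change 0.15, adjusted p = 0.3575, limma), and its 4 kept probe sets ran from -0.57 to 0.71. IFNAR2 fell by 0.37 (adjusted p = 0.02781, limma). The probe sets of IFNAR2 differed in sign, and with their mean in place of the brightest one the log2 change was 0.30 (adjusted p = 0.03437). The IFNAR2 call was also lost without any single course. JAK1 and TYK2 did not pass at 96 h (adjusted p = 0.5921 and 0.7075, limma).

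Of 16 tested JAK, STAT, IRF and SOCS genes, 4 rose and 2 fell at 96 h, 37.5% together, against 43.6% of all genes. SOCS1, an inhibitor of JAK kinases that interferon induces, had signals of 348.7, 192.0 and 170.5 at 96 h in courses 1, 2 and 3, against 5.5, 1.8 and 9.6 at 0 h. In the control course it read 22.5 at 96 h against 13.2 at 0 h. The log2 rise of SOCS1 was 3.50 ± 0.23 (SE, limma adjusted p = 1.871e-09) by its brightest probe set. Its 3 kept probe sets ran from 0.76 to 3.50, and with a 0 h signal below the array medians the size is not fixed: it lay between 1.88 and 5.29 over the alternatives, with an adjusted p of at most 2.683e-05. STAT3, a transcription factor of cytokine signalling, averaged 775 ± 35.1 at 96 h, against 379.7 ± 27.3 at 0 h (SD, n = 3), and rose by 1.00 (adjusted p = 2.107e-06, limma), while its 4 kept probe sets ran from 0.03 to 1.29. It had risen by 24 h, by 0.51 (adjusted p = 0.01542), a call lost without course 2 (adjusted p = 0.3803), with the mean of its probe sets (0.2096) and with only the groups compared (0.07798). IRF9, part of the response-element complex, averaged 53.7 ± 7.44 at 96 h, against 27.0 ± 8.03 at 0 h (SD, n = 3), and rose by 0.71 (adjusted p = 0.005864), a call lost without course 3 (adjusted p = 0.1495). In the control course IRF9 read 38.3 at 96 h against 44.4 at 0 h, both above the 17.7 to 31.6 of the shOTX2 arrays at 0 h. IRF7, which amplifies interferon production, stayed at or below 23.4.

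**Figure D3:**
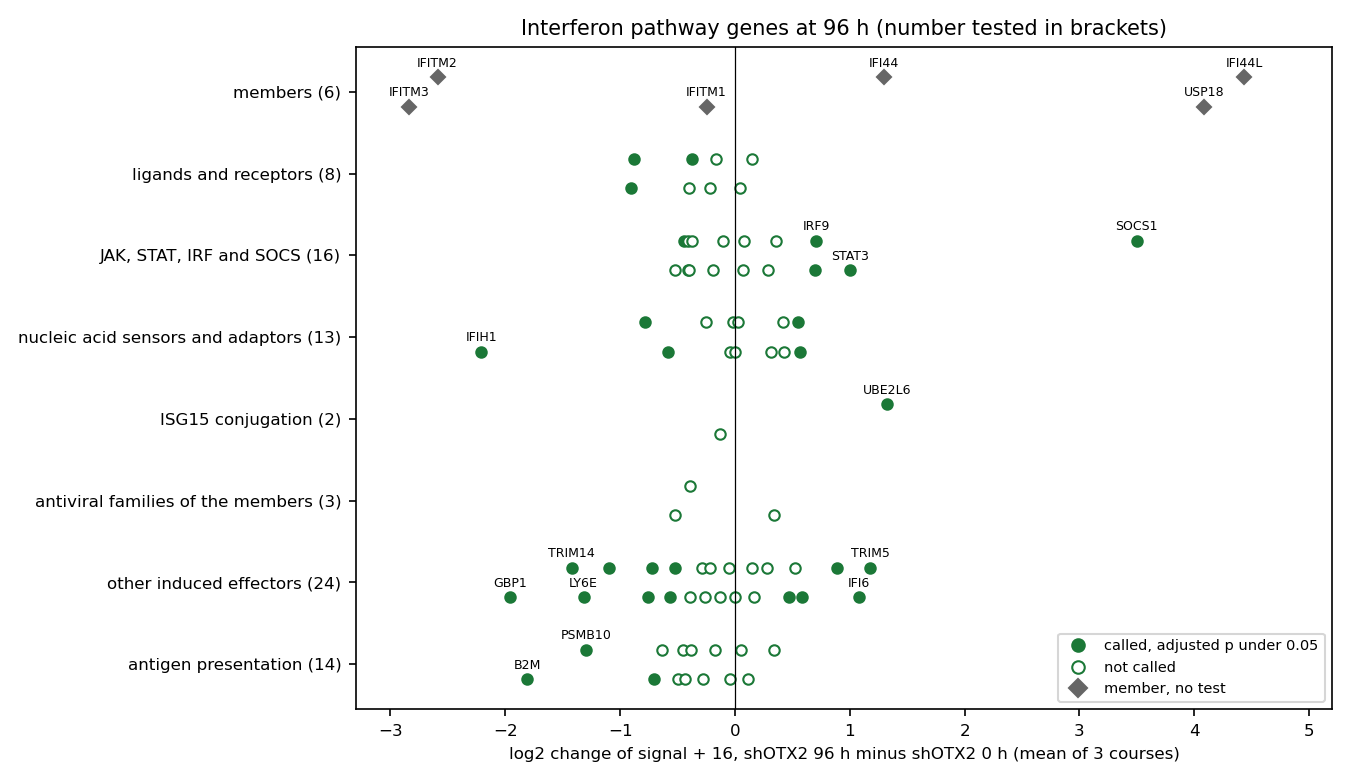
Log2 change of signal + 16 at 96 h against 0 h (mean of 3 shOTX2 courses) of the 80 tested pathway genes by list, filled where limma's adjusted p is under 0.05, with the 6 members that passed the filter as grey diamonds with no test. Filled points lie on both sides of 0 (12 higher and 19 lower), and SOCS1 by its brightest probe set is at 3.50.

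Of 13 tested sensors and adaptors 2 rose, 3 fell and 8 did not pass at 96 h, so that 38.5% were called, against 43.6% of all genes. IFIH1, the sensor of long double-stranded RNA, averaged 7.70 ± 2.92 at 96 h, against 94.0 ± 18.6 at 0 h (SD, n = 3), and fell by 2.21 (SE 0.21, adjusted p = 1.224e-07, limma). In the control course IFIH1 read 112.1 at 96 h against 54.3 at 0 h. It was the gene that fell at 24 h, by 0.98 (adjusted p = 0.007883), a call lost without course 2 (adjusted p = 0.2332). Of 2 tested genes of ISG15 conjugation 1 rose and 1 did not pass, 50.0% called, against the same 43.6% of all genes. UBE2L6, the enzyme that carries ISG15 to its targets, averaged 488 ± 62.3 at 96 h, against 184 ± 10.6 at 0 h (SD, n = 3), and rose by 1.33 (adjusted p = 2.592e-06, limma). HERC5, the ligase that attaches ISG15, had no signal above 17.0, and UBA7 was read only by probe sets shared with other genes.

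Of 24 other induced effectors 5 rose and 8 fell at 96 h, 54.2% together, against 43.6% of all genes. TRIM5, which restricts retroviruses, averaged 243 ± 12.9 at 96 h, against 99.0 ± 16.5 at 0 h, and rose by 1.18 (SD, n = 3, adjusted p = 1.276e-06, limma). IFI6, a small membrane protein, read 53.4, 39.4 and 42.3 at 96 h in courses 1, 2 and 3, against 22.9, 3.3 and 15.6 at 0 h, and rose by 1.08 (adjusted p = 0.001717, limma). CXCL11, a chemokine, rose by 1.08 at 48 h (adjusted p = 0.001761) and did not pass at 96 h (0.52, adjusted p = 0.08639), where with the course as a replicate block it passed (adjusted p = 0.04856). Among those that fell, GBP1, a guanylate-binding protein, changed by -1.96 at 96 h (adjusted p = 7.995e-05). TRIM14 changed by -1.42 (adjusted p = 7.829e-07), though its probe sets differed in sign. LY6E changed by -1.32 (adjusted p = 0.0237), a call lost without course 2 or without course 3 (adjusted p = 0.139 and 0.1161). In the control course LY6E read 48.5 at 96 h against 89.9 at 0 h, and GBP1 read 73.0 against 78.4. At the same times TRIM5 read 142.8 against 105.3 in control and IFI6 read 6.3 against 3.5. Of the 3 tested relatives of the members, none passed at 96 h by limma, and 1 had an unadjusted p under 0.05.

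Antigen presentation genes had 14 tested members, of which 0 rose and 3 fell at 96 h. Together 21.4% were called, against 43.6% of all genes (21.1% higher and 22.5% lower). B2M, the light chain of class I molecules, read 462.8, 509.8 and 609.4 at 96 h, against 1767.1, 1948.8 and 1915.1 at 0 h, in courses 1, 2 and 3. In the control course it read 817.0 at 96 h against 1371.7 at 0 h. B2M fell by 1.81 (SE 0.14, adjusted p = 1.734e-08, limma). PSMB10, an immunoproteasome subunit, averaged 57.1 ± 17.5 at 96 h, against 165 ± 44.8 at 0 h (SD, n = 3), and fell by 1.30 (adjusted p = 2.352e-05). In the control course PSMB10 read 134.2 at 96 h against 161.1 at 0 h.

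**Figure D4:**
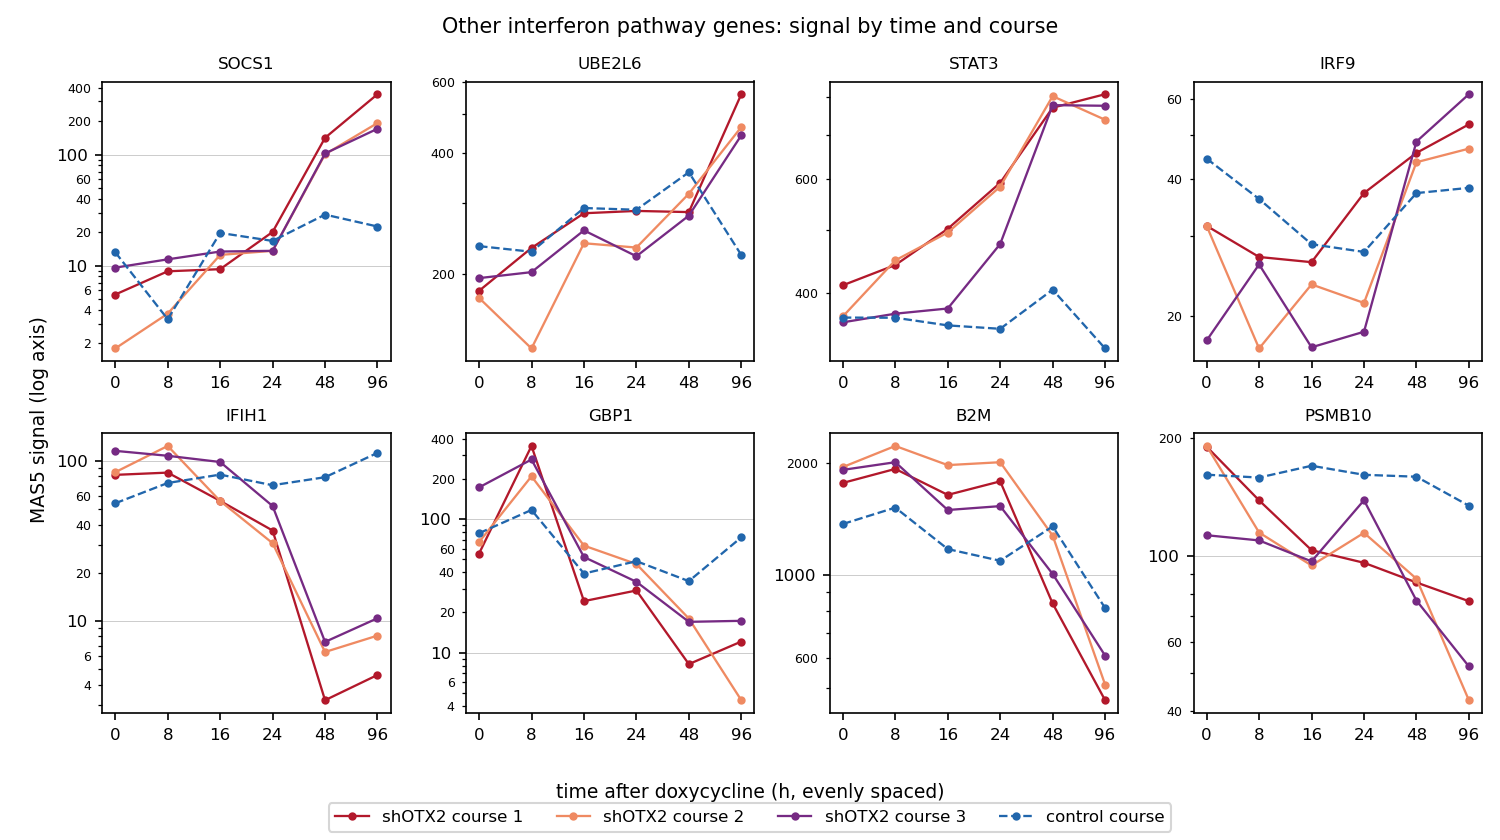
MAS5 signal (log axis) against hours of doxycycline of 8 pathway genes in the 3 shOTX2 courses and the control course. SOCS1 reaches 170.5 to 348.7 at 96 h in the shOTX2 courses against 22.5 in control, and IFIH1 drops to 4.6 to 10.4 against 112.1 in control.

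The change at 96 h was compared between the arms, with the single control arrays assumed to vary like the shOTX2 groups. Of the 80 pathway genes, 3 had a higher and 6 a lower change in the shOTX2 arm, 11.2% together, against 13.7% of all genes (6.28% higher and 7.43% lower). SOCS1, STAT3 and UBE2L6 were the 3 higher ones. IFIH1, TRIM14, B2M, PTPN2, LAP3 and ERAP1 were the 6 lower ones, of which PTPN2, LAP3 and ERAP1 were named after their values were seen. IRF9, TRIM5, IFI6, GBP1, LY6E and PSMB10, called at 96 h against 0 h, did not pass in this comparison of the arms. For IFIH1 the difference was -3.08 (adjusted p = 0.0001355, limma), and for SOCS1 it was 3.10 (adjusted p = 0.0002723, limma). With the course as a replicate block 15 genes were lower. Without course 2 there were 3 lower genes and without course 1 there were 10. The shares of all genes given here belong to the main fit and not to these alternatives.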

How the data were processed

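RNA was hybridised to Affymetrix U133 Plus 2.0 arrays, 1 per sample. The table holds linear signal intensity per probe set as the authors deposited it, from MAS5 and GCOS per the submitters' processing notes (no version is given in the sources used here). Its trimmed mean was 100.011 to 100.014 on all arrays after trimming 2% at both ends, the mark of scaling to 100. Arrays have no read depth: precision is limited by how many there are.

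The platform annotation gave the names: 41097 probe sets had 1 symbol, 1801 several and 11777 none, and some listed pathway genes have no probe set of their own and are not analysed here. Probe sets above the median of their array on 3 or more of 24 arrays were kept (33803 kept), and the brightest kept one stood for its gene. The 62 control probe sets were left out. Values were log2(signal + 16). limma 3.58.1 in R 4.3.3 fitted 12 group means (12 residual degrees of freedom, 10 with the course block, eBayes with trend) over 13903 genes, with Benjamini-Hochberg adjustment over all. Scripts were tested on simulated data.

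Groups, times and courses came from the labels. The labels describe independent courses, and deviations from group means correlated between times of a course in all 45 pairs (r 0.157 to 0.556), so courses pair arrays. The members and lists were chosen with earlier results of these data known. Named pathway genes are those fixed by role, plus at 24, 48 and 96 h up to 6 each way that were called with a log2 change of at least 1 and 1 sign in all courses, by size. Alternatives were another pseudocount, no filter, the mean of probe sets, median centring, quantile normalization, the course as block, only the groups compared and leaving out each course.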

Additional observations from a re-analysis of the deposited data

Results flagged for a closer look

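For 9 of the 80 tested pathway genes the log2 change at 96 h against 0 h differed between the shOTX2 arm and the control course by limma's test of the difference. The difference, shOTX2 minus control, was 3.10 for SOCS1 (adjusted p = 0.0002723), 1.40 for UBE2L6 (adjusted p = 0.006983) and 1.15 for STAT3 (adjusted p = 0.003366). It was -3.08 for IFIH1 (adjusted p = 0.0001355), -1.58 for TRIM14 (adjusted p = 0.002384) and -1.07 for B2M (adjusted p = 0.01829). It was -1.09 for PTPN2 (adjusted p = 0.003416), -1.003 for ERAP1 (adjusted p = 0.01025) and -0.91 for LAP3 (adjusted p = 0.02852). The control arm has 1 array per time, and the spread is taken from the shOTX2 groups. For USP18 the change was above 0 in all 3 shOTX2 courses and close to 0 in the control course. There it was -0.06, with signals of 138.2 at 96 h and 144.6 at 0 h on single arrays. The difference of the arms was 4.14 on the log2 scale, which was not tested.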

How the results depend on the processing

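The log2 changes of USP18, IFI44L, IFI44, IFITM2 and IFITM3 kept their sign from 16 to 96 h in all 11 alternatives. USP18 ranged from 4.15 to 5.36 at 48 h, and at 96 h IFITM3 ranged from -3.86 to -1.71 and IFITM2 from -3.50 to -1.61. Over the named pathway genes, 525 results kept their side of the threshold, 23 lost it, 12 gained it and 1 reversed: IFNAR2 at 96 h was 0.30 with the mean of its probe sets. With the course as a replicate block, which pairs arrays, 1 gene rose and 2 fell at 16 h, 3 rose and 3 fell at 24 h, 20 fell at 48 h and 15 were lower in the arm difference. With only the groups compared 0 rose at 24 h, and with the mean of probe sets 2 fell at 24 h. Leaving out each course gave 0 to 1 higher and 0 to 2 lower genes at 24 h, 5 to 9 higher and 6 to 13 lower at 48 h, 7 to 9 higher at 96 h and 3 to 10 lower in the arm difference. The fewest came without course 2 in each of these, and also without course 3 for the genes higher at 48 h. Without a course fewer samples remain; other causes were not tested. Median centring, which put the median of all genes at -0.12 at 96 h, gave 8 higher and 23 lower at 96 h (25.8% higher among those called, against 38.7% as reported) and 6 and 19 at 48 h (24.0% against 42.9%). Quantile normalization gave 27.6% at 96 h and 31.8% at 48 h. The shares of all genes called are not set beside the counts of the alternatives. Nothing about the pathway is therefore read from how those counts differ. Arrays limit the dim genes: ISG15, IFIT1, MX1 and OAS1 lie near background and were not tested.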

Other observations

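GBP1, chosen after its values were seen, read 353.1, 209.2 and 279.6 at 8 h, against 55.2, 67.3 and 172.8 at 0 h, in shOTX2 courses 1, 2 and 3. The control course read 117.1 at 8 h against 78.4 at 0 h. The log2 change in the shOTX2 courses was 1.49 (SE 0.33) and did not pass (adjusted p = 0.908, limma). By 96 h the signal was 4.4 to 17.3 in the shOTX2 courses and 73.0 in control.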
